A study of Zea mays subsp. mays with 2 samples.

Results

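Compact loci are rows of the maize expression tables that span 300 to 1500 bp of chromosomes 1 to 10, end minus start, under a coordinate that occurs once. There were 10887 of them among 45157 rows (24.1%). A span includes introns and untranslated parts, so a locus this short holds a gene model with few or short introns or none. The rule leaves out 1061 rows of the same spans whose coordinate is shared by several rows. No compact locus (0 of 10887) overlapped any other coordinate of the tables. The rule uses the span and the coordinate and no measured level.

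Endosperm RNA was sequenced from wild-type maize and from the dek2 mutant, both at 15 days after pollination. One table was given per genotype, and although the design text speaks of triplicates, nothing says whether a table is a single library, a pool or a mean. Each genotype is therefore n = 1, no difference has a replicate check, and no p-value is given. The labels name the source as kernel and the tissue as endosperm, and name no allele or genetic background for dek2 or the wild type.

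The endosperm stores the starch and protein of the kernel. Its main storage proteins in maize, the zeins, are encoded by short genes without introns, many of them in families of neighbouring copies, so the most abundant transcripts of this tissue come partly from compact genes. The dek mutants are named for defective kernels, and Dek2 is known from published work as a member of the pentatricopeptide repeat family with a part in mitochondrial splicing. The tables hold positions without gene names, and their genome build is not stated in the sources at hand. No compact locus is therefore assigned to a zein or to any other gene, no marker or pathway list could be filled, and the tissue label and the dek2 transcript could not be checked. No sequence is shown, because no genome of the build was at hand.

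Levels are FPKM as deposited by the authors, a number of fragments divided by transcript length and by the total mapped. For ratios, dek2 was divided by 1.503, the median dek2 to wild-type ratio of the 22250 rows that reached 1 FPKM in both libraries (0.59 on the log2 scale). A log2 ratio is log2 of scaled dek2 plus 1 FPKM over wild type plus 1 FPKM, and the added 1 FPKM understates differences at low levels. All directions are relative to that shift. The value 1e-05 is a placeholder and is called "no value". It enters counts as 0, and no ratio is given for a locus that has it. A locus was counted as higher or lower in dek2 when it reached 1 FPKM in a library and differed at least 2-fold, a threshold of size that tests nothing. In RNA from whole tissue, fewer cells of a type and less RNA per cell cannot be told apart.

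Most compact loci were low in both libraries. The median level was 0.416 FPKM in wild type against 0.601 FPKM in dek2, and 1.34 against 2.04 FPKM over all rows. At least 1 FPKM was reached by 3920 compact loci in wild type and by 4492 in dek2, and by 5133 (47.1%) in at least 1 library, against 63.1% of all rows. The other 5754 stayed under 1 FPKM in both. Of these, 2231 had a value in both libraries, 2219 had no value in wild type and 1304 had no value in dek2. Over all compact loci, no value was given for 2547 (23.4%) in wild type and for 1470 (13.5%) in dek2, against 13.5% and 8.17% of all rows, and 0 lacked a value in both. Whether the list of rows was limited to loci with a value in a library is not stated in the sources at hand. The share without a value was smaller at longer spans, from 30.5% of loci of 300 to 499 bp in wild type to 18.2% of those of 1300 to 1500 bp.

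The low end of the values followed the span closely, and sets how precise a low level can be. The 5th percentile of the given values was 0.384 FPKM in wild type against 0.425 FPKM in dek2 at 300 to 399 bp. It was 0.12 and 0.117 FPKM at 700 to 799 bp, and 0.0620 and 0.0618 FPKM at 1400 to 1500 bp. A level of 1 FPKM is thus 2.61 times the low value of the shortest class in wild type and 16.1 times that of the longest. If the low value stands for about 1 fragment, which the tables do not state, a 2-fold difference near 1 FPKM rests on a few fragments at the short end. The low values of both libraries lay close together as deposited, while the median ratio of expressed rows was 1.503. Depth itself is unknown, so no counting interval could be given.

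**Figure D1:**
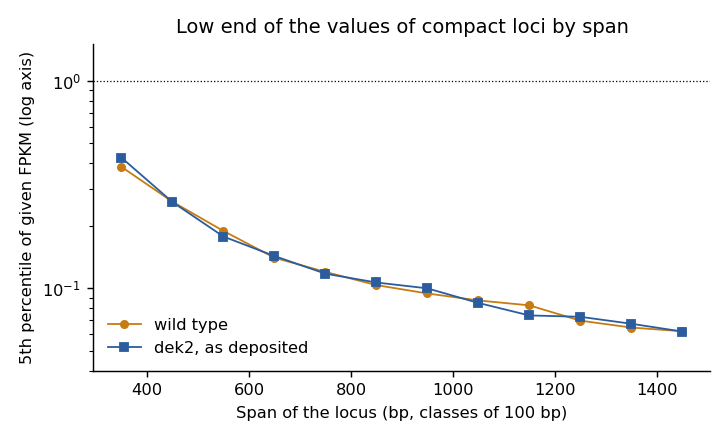
Low end of the levels of compact loci against their span. Points are the 5th percentile of the given FPKM values (log axis) in 12 span classes of 100 bp, in wild type (circles) and in dek2 as deposited (squares), and the dotted line marks 1 FPKM. The low value drops from about 0.4 FPKM at the shortest loci to 0.06 FPKM at the longest, alike in both libraries.

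A handful of compact loci carried much of the wild-type endosperm library, and these were far lower in dek2. Compact loci summed to 326206 FPKM in wild type, 28.6% of the library, and to 165862 FPKM in dek2, 15.4% of the library. With rows of shared coordinates included, the shares were 47.1% and 17.6%. The single highest locus made up 34.7% of the compact total in wild type. It took 3 loci to reach 50% of that total in wild type and 53 loci in dek2, and 246 against 1127 loci to reach 90%. Without the 20 loci highest in wild type, the compact share was 7.14% in wild type and 11.9% in dek2, so the order of the shares turned. These 20 were chosen by their wild-type level alone, which lowers the wild-type share by construction. Removal of the 100 most abundant rows of each library, whatever their span, gave 13.8% and 12.5%, and the order did not turn. Leaving out only the top locus of each library gave 18.7% and 12.9%.

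The summed level by span had a sharp peak in wild type. Loci of 700 to 749 bp, 564 in number, summed to 164654 FPKM in wild type, 50.5% of the compact total, and to 8408 FPKM in dek2, 5.07% of its total. Without the top locus of each library in that class, the sums were 51427 and 6642 FPKM. Of the 27 compact loci at 1000 FPKM or more in wild type, 8 lay in this class. Their spans were all between 719 and 726 bp, and all 8 were at least 2-fold lower in dek2. A smaller wild-type peak at 950 to 999 bp (39471 FPKM, against 10472 in dek2) was down to 5652 FPKM without its top locus. In dek2 the highest class was 300 to 349 bp with 33469 FPKM, of which 27440 FPKM came from 1 locus.

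**Figure D2:**
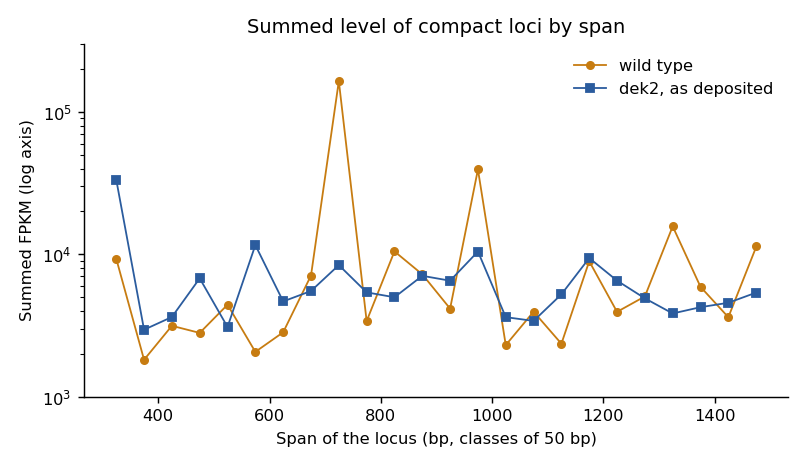
Summed level of compact loci by span. Each point is the sum of FPKM (log axis) over the loci of a 50 bp span class, in wild type (circles) and in dek2 as deposited (squares). Wild type peaks at 700 to 749 bp with 164654 FPKM, where dek2 has 8408 FPKM, and a second, lower wild-type peak stands at 950 to 999 bp.

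Compact loci differed 2-fold or more between the libraries more often than rows in general, in both directions. Of the 5133 loci at 1 FPKM or more, 898 (17.5%) were higher in dek2, against 13.2% of all rows. Another 932 (18.2%) were lower, against 12.0% of all rows. Loci under 300 bp had larger shares still, with 38.5% of 865 higher and 31.3% lower. No value in wild type was behind 280 of those higher, and no value in dek2 behind 188 of those lower. A larger share of 2-fold differences was therefore not particular to the compact range. The median log2 ratio was 0.08 among compact loci and 0.07 over all rows, while the middle 50% of the compact ratios lay between -0.74 and 0.77, wider than the -0.51 to 0.62 of all rows. Among compact loci, no value in wild type was behind 201 of the higher, and no value in dek2 behind 166 of the lower. With a value in both libraries, 697 were higher and 766 lower. Higher loci made up 49.1% of those counted, and 72.2% when dek2 was left unscaled, so which direction is more frequent depends on the scaling.

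**Figure D3:**
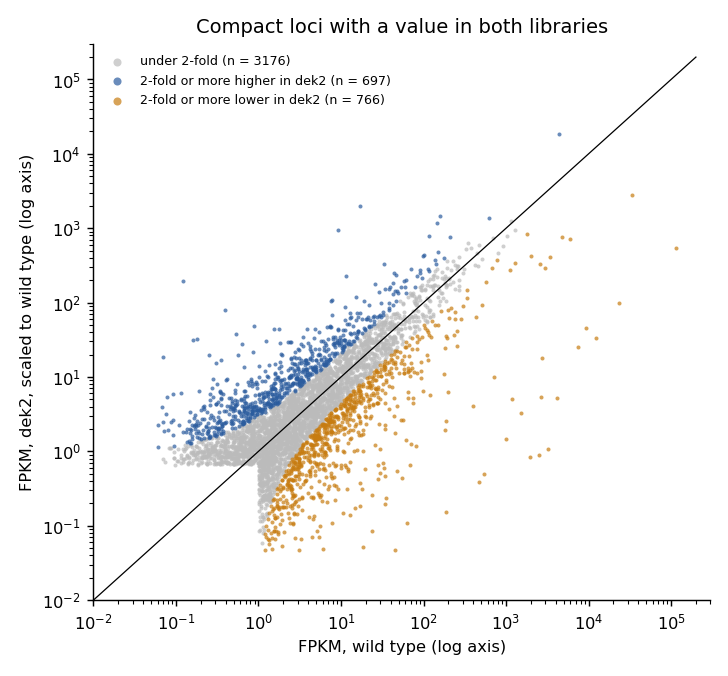
Compact loci at 1 FPKM or more in a library and with a value in both. Each point is a locus, with its wild-type FPKM on the x axis and its dek2 FPKM after scaling on the y axis (both log axes), and the line marks equal levels. The 697 higher loci (blue) and 766 lower loci (orange) flank 3176 loci under 2-fold (grey), and the highest wild-type levels lie mostly far below the line.

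Very large differences were mainly towards lower levels in dek2. At least 8-fold lower were 99 compact loci (1.93%, against 1.19% of all rows), 78 of them with a value in both libraries. At least 8-fold higher were 59 (1.15%, against 1.18% of all rows), 31 of them with a value in both, so the higher share was near that of all rows. At 32-fold, 32 compact loci were lower (0.623%, against 0.407% of all rows). Only 11 were 32-fold higher (0.214%, against 0.379% of all rows), a smaller share than in general. Loci near the same level were fewer than in general. A log2 ratio within 0.5 of 0 was found at 1712 compact loci (33.4%), against 44.8% of all rows.

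At matched levels, compact loci also had larger shares of 2-fold differences than longer loci. Between 1 and 10 FPKM, as the mean of both scaled libraries, 18.7% of 2901 compact loci were higher in dek2 and 18.5% were lower. Loci of 1501 to 4999 bp gave 12.2% and 9.81% at that level, and loci of 5000 to 19999 bp gave 8.67% and 6.73%. Between 10 and 100 FPKM, where single fragments weigh less, 20.5% of 986 compact loci were higher and 21.1% lower, against 13.1% and 8.09% at 1501 to 4999 bp and 6.99% and 5.97% at 5000 to 19999 bp. Between 100 and 1000 FPKM, 31 of 146 compact loci were higher and 34 lower (21.2% and 23.3%), against 13.4% and 8.55% of 433 loci at 1501 to 4999 bp. Of 103 loci at 5000 to 19999 bp, 9.71% were higher and 17.5% lower, so the share lower did not fall steadily with span at this level. With 1 library per genotype these shares have no error, and the difference between span classes was not tested.

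**Figure D4:**
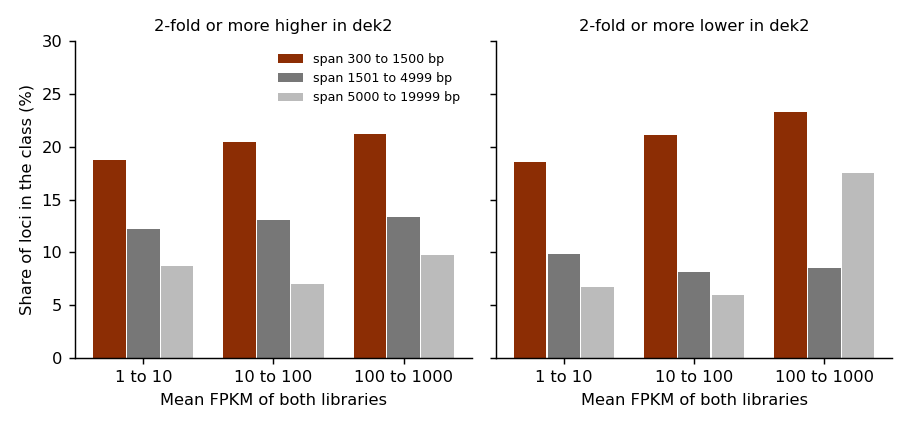
Share of loci that differ at least 2-fold, by level and span. Bars give the percentage of loci higher (left) or lower (right) in dek2 among loci of a mean level class (x axis, FPKM) in 3 span classes, from compact (dark red) to 5000 to 19999 bp (light grey). Compact loci have the highest bar in all 6 comparisons, from 18.5% to 23.3%.

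The shares were larger farther from the low values. Among the 1583 compact loci that reached at least 100 times the low value of their span class in a library, 400 (25.3%) were higher and 324 (20.5%) lower. Of the 2924 loci at 1 FPKM or more that lay between 10 and 100 times that value, 437 (14.9%) were higher and 517 (17.7%) lower. Between 3 and 10 times, 61 (10.5%) of 582 were higher and 85 (14.6%) lower, and under 3 times 0 of 44 were higher and 6 lower. The 1 FPKM added to both sides of the ratio makes 2-fold hard to reach near the low values. Under 3 times the low value, scaled dek2 is too low for any locus to count as higher. The order of these shares is therefore partly built into the ratio. Longer loci were not divided in this way.

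Within the compact range, the shortest loci had the most 2-fold differences at the threshold of 1 FPKM. At 300 to 499 bp, 41.0% of the loci at 1 FPKM or more differed at least 2-fold, and at 1300 to 1500 bp 30.7% did. The 4 classes between lay from 32.8% to 36.6%. Of the 380 differing loci of 300 to 499 bp, 92 had no value in wild type and 70 none in dek2. Where the mean reached 10 FPKM, the directions were counted apart. The share lower in dek2 was larger in each class up to 899 bp than in any longer class. From the shortest class to the longest, it was 28.0%, 23.3%, 26.9%, 17.9%, 20.7% and 17.9%. The share higher was 17.7% at 300 to 499 bp and 22.6% at 1300 to 1500 bp, with the lowest of 16.4% at 700 to 899 bp and the highest of 23.9% at 500 to 699 bp. Each class held 168 to 219 loci.

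Most of the compact loci with the highest mean level were lower in dek2. Where the mean reached 1000 FPKM, 18 of 23 compact loci (78.3%) were lower and 3 (13.0%) higher (median log2 ratio -3.36). Over all rows at that level, which include these loci, 47 of 81 (58.0%) were lower and 15 (18.5%) higher (median log2 ratio -2.18). Lower levels in dek2 were thus frequent among the most abundant rows in general. In loci of 1501 to 4999 bp at that level, 2 of 12 were lower and 4 were higher. At 5000 to 19999 bp, 2 of 4 were lower and 0 higher. A set chosen by its level in 1 library tends to be lower in the other, so both sets are given. Of the 20 compact loci highest in wild type, 19 were lower in dek2 by 2-fold or more and 1 was higher. Of the 20 highest in dek2, 9 were higher and 4 were lower, and 5 loci belonged to both sets. Of the 100 highest in each library, 56 were shared.

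Of the 10 compact loci highest in wild type, 6 were more than 200-fold lower in dek2 after scaling, 3 were 6.27-fold to 12.0-fold lower and 1 was higher. The highest lay on chromosome 7 from 18865423 to 18866146 (723 bp) and stood at 113227 FPKM in wild type against 803 FPKM in dek2 (log2 ratio -7.72). On the same chromosome, 3 loci close by had 23552, 9385 and 7370 FPKM in wild type and 148, 68.1 and 37.7 FPKM in dek2. These 4 loci share nearly the same span, 723 or 726 bp. The locus on chromosome 4 from 5094104 to 5094990 stood at 4145 FPKM in wild type against 7.85 FPKM in dek2. A locus on chromosome 7 from 120206896 to 120208211 stood at 12296 FPKM in wild type against 50.1 FPKM in dek2.

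The 3 with smaller deficits kept more than 1000 FPKM in dek2, although 2 of them were still over 8-fold lower. The locus on chromosome 6 from 44541824 to 44542774 (950 bp) stood at 33818 FPKM in wild type against 4238 FPKM in dek2, where it was still the third highest compact locus, with a log2 ratio of -3.58. On chromosome 2, the levels at 160784374 to 160785866 were 5981 and 1060 FPKM (log2 ratio -3.08). The locus on chromosome 6 from 156729181 to 156730333 had 4783 and 1144 FPKM (log2 ratio -2.65). One member of the top 10 was higher in dek2, at chromosome 10 from 143869095 to 143869400. With a span of 305 bp it lies next to the lower span limit, and its level was 4363 FPKM in wild type against 27440 FPKM in dek2 (log2 ratio 2.07).

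The lowest ratios, among 1651 compact loci with a value in both libraries and 10 FPKM or more in 1 of them, were over 300-fold differences. The lowest belonged to neighbours on chromosome 6. The one spanning 39091666 to 39092487 stood at 3267 FPKM in wild type against 1.63 FPKM in dek2 (log2 ratio -10.61). The one spanning 39087614 to 39088302 stood at 2527 against 1.32 FPKM (log2 ratio -10.39). On chromosome 1, a locus at 161790709 to 161791432, again 723 bp long, had 1952 and 1.26 FPKM (log2 ratio -10.05). The next 4 lay on chromosome 4, with log2 ratios from -9.38 to -8.50. One of these, from 30089545 to 30091004 (1459 bp), had 2669 and 8.16 FPKM. The eighth was the chromosome 7 locus from 120206896, with a log2 ratio of -8.48. All 8 were above 500 FPKM in wild type and 7 of them were under 10 FPKM in dek2.

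The highest ratios came from loci that were near 0 or low in wild type. At chromosome 1 from 11298551 to 11299266 (715 bp) wild type had 0.122 FPKM and dek2 292 FPKM (log2 ratio 7.44). On chromosome 9, the levels at 6491474 to 6492651 (1177 bp) were 16.9 FPKM in wild type against 3018 FPKM in dek2 (log2 ratio 6.81). The locus on chromosome 3 from 201981098 to 201981984 (886 bp) had 9.08 and 1410 FPKM (log2 ratio 6.54). The last pair are also among the 10 highest compact loci of dek2, while the first is not. Next in order, on chromosome 8 from 167532925 to 167534041, had 0.391 and 120 FPKM (log2 ratio 5.86). The other 4 of the 8 reached 46.5 to 72.1 FPKM in dek2 from 0.159 to 0.876 FPKM in wild type, with log2 ratios from 4.64 to 4.82. A wild-type level of 0.122 FPKM is close to the low value of its span class, so the size of that ratio is uncertain. Wild-type levels of 0.159, 0.180 and 0.876 FPKM among the other 4 stood against low values of 0.0646, 0.0827 and 0.384 FPKM. With 0.1 FPKM added in place of 1 FPKM, all 8 ratios were larger. The log2 ratio of 7.44 was then 9.77, and that of 6.81 was 6.89.

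Among the 10 compact loci highest in dek2, 7 were at least 2-fold higher there than in wild type. On chromosome 3 from 179928762 to 179929236 (474 bp) the levels were 160 FPKM in wild type against 2200 FPKM in dek2 (log2 ratio 3.18). On chromosome 8 from 171118733 to 171119464 (731 bp) they were 145 and 1765 FPKM (log2 ratio 3.01). The locus on chromosome 5 from 167791847 to 167793057 had 627 and 2044 FPKM (log2 ratio 1.12). Loci of like span as those of chromosome 7 went both ways. Of the 55 loci of 719 to 726 bp at 1 FPKM or more, 16 were lower and 5 higher (median log2 ratio -0.40). The 16 include the 8 loci at 1000 FPKM or more in wild type whose spans set this window, so the count is partly built in. Of the 960 loci of 700 to 899 bp at 1 FPKM or more, 20.1% were lower and 16.5% higher. Over all rows, 12.0% were lower and 13.2% higher.

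Some compact loci had a clear level in 1 library and no value in the other. At 10 FPKM or more, 14 loci had no value in dek2 and 29 had none in wild type. The highest by far, on chromosome 10 from 11919217 to 11919785 (568 bp), had 8657 FPKM in dek2 but no value in wild type. The next in that direction, on chromosome 4 from 167942331 to 167943270 (939 bp), had 123 FPKM in dek2, and the 3 after it lay between 69.7 and 91.8 FPKM. In the other direction, a locus on chromosome 8 at 44966366 to 44966867 (501 bp) had 811 FPKM in wild type, and that on chromosome 2 from 100847535 to 100848039 (504 bp) had 696 FPKM. The next 3 lay between 131 and 162 FPKM. A failed estimate and an absent transcript cannot be told apart in the placeholder, so no fold is given for these loci.

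Abundant compact loci at nearly the same level in both libraries were also present. Of 169 compact loci at a mean of 100 FPKM or more, 44 had a log2 ratio within 0.5 of 0. The highest was on chromosome 9 from 1427242 to 1428578 (1336 bp), with 1155 FPKM in wild type against 1866 FPKM in dek2 before scaling (log2 ratio 0.10). On chromosome 6 from 144915968 to 144916313 (345 bp) the levels were 1285 and 1424 FPKM (log2 ratio -0.44). The locus on chromosome 4 from 36338849 to 36340309 had 1015 and 1165 FPKM (log2 ratio -0.39). On chromosome 10 from 4609837 to 4610572 (735 bp) they were 698 and 1104 FPKM (log2 ratio 0.07). The last pair by this rule, on chromosomes 1 and 3, had log2 ratios of 0.33 and 0.03. On the deposited values, 2 of these 6 were within 0.5 of 0, since the shift of 0.59 is then added.

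Part of the strongly lower compact loci lay within 100 kb of each other. At 10 FPKM or more in wild type, 92 compact loci had an 8-fold or larger deficit in dek2. Of these, 19 (20.7%) formed 5 runs of 2 or more such loci less than 100 kb apart, with other rows allowed between them. For scale, 1694 compact loci reached 10 FPKM in a library. Their consecutive pairs lay under 10 kb apart in 103 cases, at 10 to 100 kb in 169 and over 100 kb in 1412. Of the 59 loci at least 8-fold higher that reached 10 FPKM in dek2, 0 formed a run, and at a gap of up to 200 kb 2 of them formed 1. The 92 lower loci held 73.7% of the compact wild-type FPKM and 4.67% of that of dek2, and the 19 in runs held 51.6% and 0.656%. Likeness of neighbouring gene copies can lead to shared or misplaced reads, so single levels in a run are uncertain, and its sum covers loci selected as lower.

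The longest run, on chromosome 7 between 18755935 and 18880380, had 7 loci over 124 kb and 0 other compact loci between them. Its sum was 154929 FPKM in wild type against 1067 FPKM in dek2, a 218-fold difference once scaled. Of its members, 6 had spans of 722 to 726 bp, with wild-type levels from 183 to 113227 FPKM and log2 ratios from -8.14 to -5.98. The seventh, of 329 bp, had 38.4 FPKM in wild type and no value in dek2. The wild-type levels within the run differed by more than 1000-fold, while every member with a value in dek2 was over 60-fold lower there.

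The run on chromosome 4 between 5079764 and 5159215 had 6 loci over 79.5 kb with unlike spans, from 886 to 1317 bp. Its sum was 6897 FPKM in wild type against 15.2 FPKM in dek2, a 680-fold difference once scaled. Its wild-type levels were 45.5, 186, 15.9, 4145, 1505 and 1000 FPKM in order of position. In dek2 they were 0.0711, 0.228, no value, 7.85, 4.89 and 2.20 FPKM. The 1 other compact locus inside this run stayed under 1 FPKM in both libraries. Farther along chromosome 4, a pair from 5495164 to 5595805 summed to 674 FPKM in wild type against 0.746 FPKM in dek2, where only 1 of them had a value.

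The 2 runs on chromosome 6 were pairs. The pair from 39087614 to 39092487 holds both loci with the lowest ratios and summed to 5794 FPKM in wild type against 2.95 FPKM in dek2. The pair from 68642361 to 68648868 consists of loci with the same span, 442 bp, and nearly the same wild-type level, 34.5 and 33.5 FPKM. In dek2 these had 0.295 and 0.884 FPKM, the first close to the low value of its span class (0.260 FPKM).

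**Figure D5:**
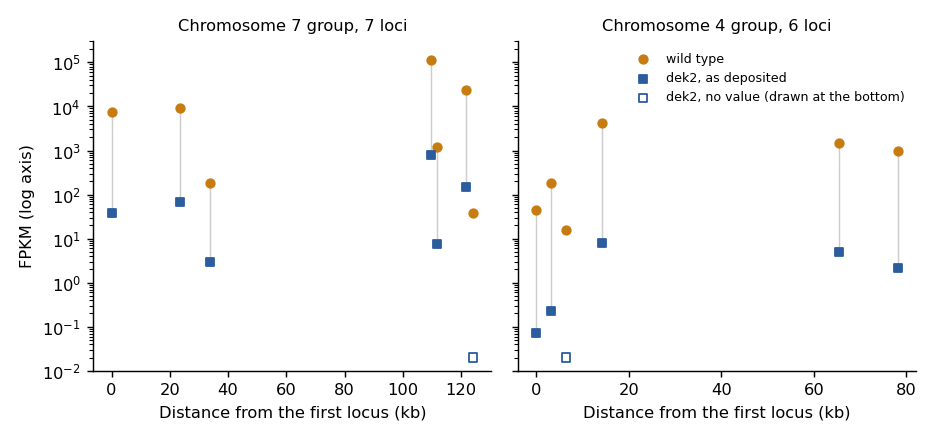
Levels along the longest runs of strongly lower compact loci. Each locus is placed by its distance in kb from the first locus of its run, with its FPKM (log axis) in wild type (circles) and in dek2 as deposited (squares), and open squares at the bottom stand for no value in dek2. On chromosome 7 wild type ranges from 38.4 to 113227 FPKM over 7 loci, and on chromosome 4 from 15.9 to 4145 FPKM over 6 loci, with dek2 far below at every locus.

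Moderately higher loci also had neighbours of their kind, at modest levels. At least 2-fold higher and at 10 FPKM or more in dek2 were 423 compact loci, and 49 of them (11.6%) formed 23 runs of 2 or 3 loci. At least 2-fold lower and at 10 FPKM or more in wild type were 368 loci, of which 49 (13.3%) formed 19 runs. Both sets come from the 1694 compact loci that reached 10 FPKM in a library. How many of the 1694 lie in runs whatever their ratio was not counted. Among consecutive pairs of the 1694, both were higher in 11 of 103 under 10 kb apart. At 10 to 100 kb this was 14 of 169, and over 100 kb 82 of 1412. On chromosome 7 between 119943267 and 119992231, 3 loci had 90.9, 21.8 and 69.9 FPKM in wild type and 370, 138 and 429 FPKM in dek2, with log2 ratios of 1.43, 2.02 and 2.01. On chromosome 2, loci 59 bp apart between 153777906 and 153779009 had 3.42 and 7.49 FPKM in wild type and 39.3 and 70.2 FPKM in dek2, with log2 ratios of 2.62 and 2.49. Loci that close may be parts of 1 transcript, which the tables do not say.

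Close neighbours went the same way more often than distant ones. Among consecutive compact loci at 10 FPKM or more in a library, 103 pairs lay under 10 kb apart. In 27 of these (26.2%) both were at least 2-fold different in the same direction, and in 5 (4.85%) in opposite directions. Of the 1412 pairs over 100 kb apart, 152 (10.8%) went the same way and 149 (10.6%) went opposite ways. Without the 19 loci of the strongly lower runs, 18 of 94 close pairs (19.1%) went the same way and 5 opposite. These shares describe loci of 1 pair of libraries, which are not replicates.

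Summed levels of compact loci differed in direction between chromosomes. Chromosome 7 held 53.3% of the compact FPKM in wild type and 6.36% in dek2 (173932 and 10556 FPKM), and without its top locus in each library the sums were 60705 and 9299 FPKM. Chromosome 10 held 3.02% and 27.0% (9837 and 44816 FPKM), and without its top locus in each library the sums were 5474 and 17376 FPKM. Both directions were thus the same without the top locus, on sums as deposited and not scaled. The chromosome 7 direction still rests on few loci. Its run between 18755935 and 18880380, which includes the top wild-type locus, gave 154929 FPKM of the wild-type sum but 1067 FPKM of that of dek2. The locus from 120206896 to 120208211 gave another 12296 FPKM to wild type, against 50.1 FPKM to dek2. With the run and this locus left out, the chromosome 7 sum is lower in wild type than in dek2. Of the 17376 FPKM left on chromosome 10 in dek2, 8657 FPKM came from the locus from 11919217 to 11919785. That locus had no value in wild type, so the direction on chromosome 10 rests largely on single loci. Higher loci were least frequent on chromosome 4 (14.8%) and most frequent on chromosome 3 (21.6%). Lower loci were least frequent on chromosome 5 (14.7%) and most frequent on chromosome 8 (21.0%). Median log2 ratios ranged from -0.06 to 0.21.

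Spans that are a multiple of 3, as an open reading frame without introns and untranslated parts has, were in excess among compact loci. They made up 4274 of 10887 (39.3%). The share was 49.7% at 300 to 499 bp, 40.3% at 500 to 699 bp and 34.3% at 1300 to 1500 bp. Loci under 300 bp had 47.3%, so the excess was not particular to the compact range. Longer loci lay near the share that a remainder taken evenly gives, with 34.3% at 1501 to 2999 bp, 32.7% at 3000 to 4999 bp and 32.4% at 5000 to 19999 bp. Loci of both kinds differed about equally often. Of those with such a span and 1 FPKM or more, 18.6% were higher and 18.4% lower in dek2, against 16.8% and 18.0% of the others. Among the 27 loci at 1000 FPKM or more in wild type, 11 had such a span, and 4 of the 7 loci of the chromosome 7 run did.

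The limits of the span rule cut through a continuous range. Just inside the lower limit, 64 loci of 300 to 309 bp had a median of 0.747 FPKM in wild type against 0.928 FPKM in dek2. Just outside, 65 loci of 290 to 299 bp had 0.890 and 1.75 FPKM. At the upper limit, 80 loci of 1491 to 1500 bp had medians of 0.264 and 0.399 FPKM, and 67 loci of 1501 to 1510 bp had 0.414 and 0.740 FPKM.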

How the data were processed

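Endosperm RNA of 1 wild-type and 1 dek2 sample was compared. Trizol extraction, DNase I treatment and standard Illumina library preparation were used, per the labels' protocols. The authors deposited 1 FPKM value per row with a chromosome, start and end, per the file headers. Bowtie 0.12.2 is named, per the submitters' processing notes. The program for FPKM, the build, the annotation, strand use and the treatment of reads that match several loci are not given in the sources at hand. Reads shared by gene copies may therefore be split or lost.

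Both tables list the same 45157 coordinates in the same order and were paired line by line. Selection, scaling, ratios and counts were computed with Python 3.11.15, numpy 2.4.6 and pandas 2.3.3, and were tested on simulated data with known folds. The low value of a span class is the 5th percentile of its given values. Loci in the text are the 10 highest in each library, the 8 lowest and 8 highest ratios, the 5 highest without a value in the other library and the 6 highest within 0.5 of 0 on the log2 scale. Members of runs and the span window of 719 to 726 bp were chosen after their values were seen. The compact range and these rules were chosen with earlier results of these data known. Coordinates are printed unchanged, and the base at which starts are counted is not stated. Alternatives covered the scaling, pseudocount, filters, span limits, fold threshold, shared coordinates and the gap of runs.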

Additional observations from a re-analysis of the deposited data

How the results depend on the processing

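The counts of 898 higher and 932 lower compact loci moved by over 1.5 times with the scaling, the pseudocount, the filter, the span limits and the threshold. Without scaling 1660 were higher, and the 640 lower stayed within 1.5 times. A pseudocount of 0.1 gave 1429 higher, a filter of 5 FPKM left 550 lower, and spans of 300 to 1000 bp left 572 higher. A 3-fold threshold left 405 higher and 412 lower. These counts follow from the construction of each alternative. As shares, the filter of 5 FPKM gave 24.5% higher and 21.6% lower of 2548 loci. Spans of 300 to 1000 bp gave 17.8% and 19.6% of 3220, against 17.5% and 18.2% of the 5133. Under every other setting run, both counts were within 1.5 times. The median log2 ratio of 0.08 was 0.50 without scaling, 0.039 when the sums of both libraries were matched after removal of the top 100 rows of each, 0.17 with the median ratio of compact loci, 0.10 with a pseudocount of 0.1, 0.16 with a filter of 5 FPKM, 0.048 without a filter, 0.034 at 300 to 1000 bp, 0.12 at 300 to 2000 bp and 0.028 with a value in both libraries. The share of the wild-type FPKM (28.6%) was 23.1% at 300 to 1000 bp, 31.2% at 300 to 2000 bp, 13.8% without the top 100 rows of each library and 47.1% with shared coordinates included. The share of the dek2 FPKM (15.4%) was 10.7%, 19.7%, 12.5% and 17.6% in the same order. Of the 33 named loci with a value in both libraries, 0 at 2-fold or more turned direction under the 3 alternatives run. The change in their log2 ratios with a pseudocount of 0.1 lay between -1.325 and 2.33. Gaps of 50 kb and 200 kb put 17 and 19 of the 8-fold lower loci into runs, and 0 and 2 of the 8-fold higher ones. The filter on low values (837 higher, 841 lower at 10 times the low value or more) was chosen after seeing the data. No replicate could be left out with n = 1. No paired analysis was possible because each genotype has 1 sample.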
